A study of Mus musculus with 28 samples.

Results

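Unstimulated Th17 cells and Th1 cells recovered 5 days after transfer into mice were compared on 6 of the 28 arrays of the series, 3 of Th17 cells and 3 of Th1 cells, chosen by their sample titles. All were CD4+ T cells of the strain BwTRP1 Rag1-/-, so both groups lack Rag1 and carry a transgenic T cell receptor for TRP1, a protein of melanocytes. They were stimulated with TRP1 peptide on irradiated splenocytes and polarised for 7 days. Th17 cultures held IL-1, IL-6, IL-21, TGFβ2 and antibodies to IL-2, IL-4 and IFN-γ, with IL-23 added later, and Th1 cultures held IL-12 and an antibody to IL-4. Media with IL-2 was given to both. Cells were then injected into B6.PL (Thy1.1+) hosts that had received 5 Gy and that still had blood cells of their own. Pooled spleens and inguinal lymph nodes were the source at recovery, and cells were enriched for CD4 and sorted for Thy1.2. The other part of each sample was restimulated for 2 h through CD3 and CD28, and unstimulated cells were also taken on day 15 (4 Th17 and 2 Th1 samples). These show here where the day 5 difference itself differed. Their arrays are also in the fit, so they share in the estimate of the spread and in the slope on granulocyte markers given below. The labels do not say that replicates of a group came from separate cultures or separate pools of mice. The p-values thus measure the spread between samples within groups, pooled over the 8 groups of the fit, which may be technical.

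Th17 cells arise under IL-6 and TGF-β, are maintained by IL-23, secrete IL-17 and act mainly at epithelial surfaces. Th1 cells arise under IL-12, secrete IFN-γ and activate macrophages. Beyond these cytokines, helper cells carry receptors for lipids, nucleotides, growth factors and matrix proteins through which they sense a tissue, and nuclear receptors that link transcription to metabolism and to the circadian clock.

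The values are log2 RMA values, on which a difference of 1 is a 2-fold change. A gene was called where limma gave a Benjamini-Hochberg adjusted p under 0.05 over 19938 genes. Of these, 724 were called (3.63%), 460 of them higher in Th17 cells (2.31%) and 264 lower (1.32%), and the median difference of all genes was -0.04. With each array centred on its own median the split was 377 higher and 437 lower. The 724 calls were 444 without Th1 replicate 1, 447 without Th1 replicate 3, 481 without Th17 replicate 1 and 482 without Th17 replicate 3. Values of a called gene did not overlap between the groups for 723 of the 724 genes, against 26.0% of all genes. The genes were called on the same arrays, so this follows largely from the calling and is no separate finding, here or for single genes below. Array medians lay between 6.84 and 6.96, and arrays correlated at 0.993 to 0.998 within a group and at 0.988 to 0.994 between the groups. At an unadjusted p under 0.05, limma gave 2566 genes (12.9%). Of 11 genes of T cell identity 0 were called by limma, 3 had an unadjusted p under 0.05, and Cd4, the co-receptor that defines these cells, had 13.02, 13.01 and 13.08 in Th17 cells and 12.78, 12.84 and 12.92 in Th1 cells. From a list of the Th17 program 4 of 11 genes were higher (Il23r, Il17re, Ccr6 and Rora) and 0 lower, with a median difference of 0.35. In a list of the Th1 program 1 of 11 was higher, Il18r1, and 0 lower, with a median difference of -0.32.

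Genes of neutrophil granules and other granulocyte genes were higher in the Th17 samples: 13 of 28 markers rose and 0 fell, with a median difference of 0.85. The mean of the 28 markers was 8.45, 7.16 and 7.33 in Th17 replicates 1 to 3, against 6.37, 6.54 and 6.55 in Th1 cells. The Th17 arrays therefore stood above all Th1 arrays, and replicate 1 stood furthest above. The count fell to 7 without Th17 replicate 1 and to 7 without Th1 replicate 1. It rose to 14 without Th17 replicate 2 and to 15 without Th17 replicate 3. Mmp8, a collagenase of neutrophil granules, had 9.93, 6.54 and 7.22 in Th17 cells, against 4.65, 4.80 and 4.95 in Th1 cells. Cxcr2, the neutrophil receptor for CXC chemokines, had 9.26, 6.26 and 7.60 in Th17 cells, against 5.13, 5.59 and 5.33 in Th1 cells. In both genes the groups did not overlap, and the spread among Th17 replicates exceeded that among Th1 replicates. Some markers of mature and immature granulocytes did not pass: Ly6g had 9.91, 7.47 and 8.06 in Th17 cells, against 7.92, 8.13 and 7.96 in Th1 cells. Elane, a neutrophil elastase gene, had 6.89, 6.97 and 6.50 in Th17 cells, against 6.62, 6.58 and 6.55 in Th1 cells. Monocyte and macrophage markers averaged 7.51, 6.82 and 6.93 in Th17 cells and 6.62, 6.86 and 6.80 in Th1 cells, so that Th17 replicate 1 was highest here too. Of 19 of them 0 were called by limma, and 8 had an unadjusted p under 0.05. Without Th17 replicate 2, 4 were called higher, and without Th1 replicate 2 or 3, 1 was. Of the 19, 7 had a called positive slope on the granulocyte marker mean described next. Of the other cell types, 1 of 11 dendritic cell markers (Itgax, lower), 1 of 11 B cell markers (Cd22, lower), 1 of 8 NK and CD8 T cell markers (Klrb1c, higher), 1 of 6 erythroid markers (Car1, higher) and 1 of 11 platelet and mast cell markers (Cpa3, higher) were called. The Itgax call was lost without Th17 replicate 1 or any single Th1 array, and those of Itgax, Klrb1c, Car1 and Cpa3 with the granulocyte covariate described next. In such bulk samples, fewer cells of a type and less RNA per cell cannot be told apart.

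To separate genes that move with these markers from the rest, a slope on the granulocyte marker mean was estimated within the 8 groups taken after transfer, without use of the difference between Th17 and Th1 cells. Over all genes, 146 (0.732%) had a called positive slope, and 8 had one without both day 5 parts of Th17 replicate 1, so the slopes rest largely on that sample. Among the 460 genes higher in Th17 cells, 46 (10%) had one and 414 did not, and among the 264 lower genes 2 had a positive and 7 a negative slope. With the marker mean as a covariate, the median difference of the 46 genes was 0.11, against 1.20 without it, and 5 of the 46 stayed called. The 46 were chosen by their slope on this same mean, so the fall of their median was fixed by the choice and tests nothing. Of the 28 markers that make up the mean, 14 had a called positive slope themselves. The median of the other 414 was 0.58 with the covariate and 0.71 without it, and 119 of them stayed called. For the lower genes these medians were -0.51 and -0.56, and 74 of 264 stayed called. The covariate differs between the groups compared, so it also takes up part of any difference that is not related to granulocytes. Among the genes described below without a called positive granulocyte slope, the calls of Cysltr2, Ptgir, Itga1, Pik3ip1, Insr, Dpp4, Pdk1, Elovl6, Ppp3ca, St6gal1, Il1r2, Irs2, Ptger4, S1pr5, Cx3cr1, Cry2 and Tef did not hold with the covariate. How far granulocyte RNA contributed to a difference was not tested.

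**Figure D1:**
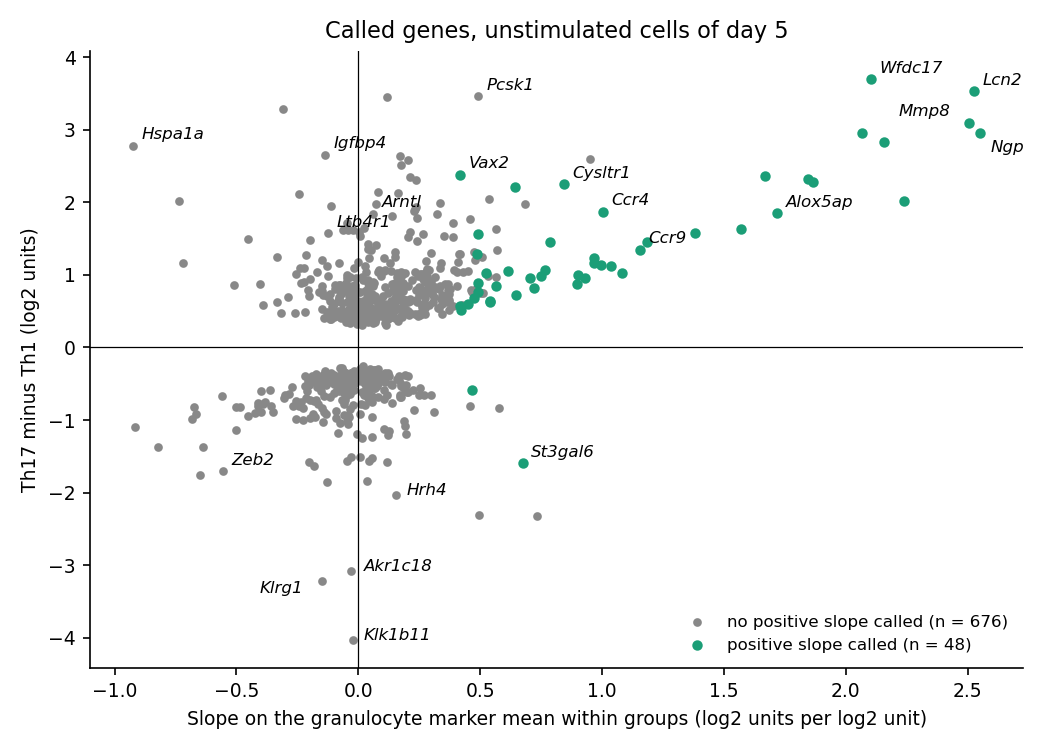
Each point is one of the 724 called genes. The horizontal axis gives its slope on the granulocyte marker mean within groups, in log2 units per log2 unit, and the vertical axis gives Th17 minus Th1 in log2 units. Green points, 46 above and 2 below zero, have a called positive slope. Lcn2, Mmp8 and Ngp lie at the far right, whereas Pcsk1, Igfbp4, Arntl and Ltb4r1 lie near the middle at high differences.

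The 46 genes held granule and secreted products (Ngp, Lcn2, Mmp8, S100a8, S100a9, Retnlg, Wfdc17, Lrg1 and Chil1), but also genes known from T cells, such as Ccr4, Ccr6, Ccr9 and Il7r. Several of the granule genes, Ngp and Mmp8 among them, belong to the 28 markers of the mean. Their slope is thus in part a slope on themselves, and their place among the 46 is no separate finding. Ccr9, the gut homing receptor for CCL25, had 9.12, 7.24 and 7.34 in Th17 cells, against 6.49, 6.71 and 6.46 in Th1 cells. Its difference of 1.35 (SE 0.32, adjusted p = 0.0168) was 0.00 with the covariate. Alox5ap, which presents arachidonic acid to 5-lipoxygenase, had 10.33, 7.60 and 8.30 in Th17 cells, against 6.77, 7.03 and 6.88 in Th1 cells. Its difference of 1.85 (SE 0.45, adjusted p = 0.0164) was -0.14 with the covariate. Neither gene was called without Th17 replicate 1, Th1 replicate 1 or Th1 replicate 3. Th17 replicate 1 was highest for both genes, as it was for the markers, and the groups did not overlap. Dhrs3, a retinal reductase, differed by 1.13 and by -0.02 with the covariate, and Mgst2, a microsomal glutathione transferase, by 0.99 and by -0.05. Spi1, Cd33 and Hdc (PU.1, a sialic acid lectin and histidine decarboxylase), which are named because of their values, were among the 46 with differences of 1.02, 1.57 and 0.98, and the calls of these 3 and of Dhrs3 and Mgst2 were lost with single arrays left out, Th17 replicate 1 and Th1 replicate 1 among them. The 5 genes of the 46 that stayed called were Vax2, Cysltr1, Ccr6, Il7r and Nebl. Vax2, a homeobox gene, had 10.28, 9.60 and 9.98 in Th17 cells, against 7.53, 7.55 and 7.65 in Th1 cells, a difference of 2.38 (SE 0.14, adjusted p = 8.4e-11). The groups lay far apart on every array. Ccr4, the receptor for CCL17 and CCL22 on Th2, Treg and Th17 cells, had 12.30, 10.67 and 11.38 in Th17 cells, against 9.58, 9.64 and 9.52 in Th1 cells. It differed by 1.87 (SE 0.29, adjusted p = 2.3e-04) and by 0.71 with the covariate (adjusted p = 0.286).

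Receptors of cytokines were often higher in Th17 cells. Of 28 measured, 10 rose and 1 fell, with a median difference of 0.29, and the count of higher genes was 5 without Th17 replicate 1 and 6 without Th1 replicate 1, 2 or 3. With the granulocyte covariate it was 5. Ifngr2, the signalling chain of the IFN-γ receptor, had 9.86, 9.41 and 10.16 in Th17 cells, against 7.19, 7.14 and 7.21 in Th1 cells. The Th17 arrays were all higher, by 2.63 (SE 0.23, adjusted p = 3.6e-08), a 6.20-fold difference. Ifngr1, the ligand-binding chain, had 11.96, 11.74 and 11.81 in Th17 cells and 11.56, 11.53 and 11.71 in Th1 cells and did not pass (difference 0.24, adjusted p = 0.55). The IL-6 receptor also had 1 chain called. Il6ra, its ligand-binding chain, had 10.00, 9.49 and 10.27 in Th17 cells, against 8.09, 8.21 and 8.12 in Th1 cells (difference 1.78, SE 0.18, adjusted p = 6.6e-07). Il6st, the shared chain gp130, differed by 0.40 (adjusted p = 0.222). For each receptor 1 chain was called and the other was not, although the arrays of Ifngr1 did not overlap either.

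Il17re, a receptor chain for IL-17C that was listed with the Th17 program, had 9.32, 8.65 and 9.30 in Th17 cells, against 6.58, 6.64 and 6.49 in Th1 cells (difference 2.52, SE 0.16, adjusted p = 1.5e-10). Il10ra, the ligand-binding chain for IL-10, was the 1 member that fell, with 9.63, 9.53 and 9.34 in Th17 cells, against 10.31, 10.49 and 10.55 in Th1 cells. This was a 1.94-fold lower level (difference -0.95, SE 0.11, adjusted p = 4.1e-06), and the groups did not overlap. Il1r2, the decoy receptor for IL-1, had 9.47, 7.45 and 8.14 in Th17 cells, against 6.56, 6.19 and 6.40 in Th1 cells, with the highest value again in replicate 1. Its difference was 1.97 (SE 0.42, adjusted p = 0.00564), 1.41 without both day 5 parts of Th17 replicate 1 (adjusted p = 0.064) and 1.18 with the granulocyte covariate (adjusted p = 0.572).

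Lipid receptors differed in both directions. Of 30 other G protein-coupled receptors and their partners, 8 rose and 4 fell (2 without Th17 replicate 1, Th1 replicate 2 or Th1 replicate 3), with a median difference of 0.18. Cysltr1, a receptor for cysteinyl leukotrienes, had 10.03, 8.95 and 9.45 in Th17 cells, against 7.15, 7.37 and 7.15 in Th1 cells. It differed by 2.25 (SE 0.25, adjusted p = 2.3e-06), and by 1.27 with the granulocyte covariate (adjusted p = 0.00177). Ltb4r1, the receptor for leukotriene B4, is expressed by neutrophils and was among the 28 granulocyte markers. It had 8.50, 8.47 and 8.61 in Th17 cells, against 7.00, 6.91 and 6.96 in Th1 cells, and replicate 1 was not the highest Th17 array. Its difference was 1.57 (SE 0.16, adjusted p = 7.4e-07), and 1.71 with the covariate. Cysltr2, the other cysteinyl leukotriene receptor, had 8.47, 8.65 and 8.56 in Th17 cells, against 7.79, 7.76 and 7.78 in Th1 cells (difference 0.78, SE 0.16, adjusted p = 0.00335). These 3 leukotriene receptors were thus higher in Th17 cells, while Alox5, the enzyme that starts leukotriene synthesis, did not pass (difference 0.52, adjusted p = 0.0874).

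Gpr183, which guides cells along oxysterol gradients, had 10.42, 9.92 and 10.41 in Th17 cells, against 8.83, 8.56 and 8.66 in Th1 cells (difference 1.56, SE 0.13, adjusted p = 3.6e-08). Gpr15, a receptor for homing to the large intestine, had 7.97, 7.66 and 8.26 in Th17 cells, against 6.69, 6.72 and 6.24 in Th1 cells (difference 1.42, SE 0.19, adjusted p = 3.0e-05). Ramp1, the co-receptor that builds the CGRP receptor, had 8.03, 7.78 and 8.31 in Th17 cells, against 6.78, 6.65 and 6.99 in Th1 cells (difference 1.23, SE 0.17, adjusted p = 3.2e-05). None of these groups overlapped, and none of the 3 genes had a called granulocyte slope. The lower members were Gpr155, Ptgir, Ptger4 and S1pr5. Hrh4, the histamine H4 receptor, which was not in the list, had 5.80, 5.78 and 5.58 in Th17 cells, against 8.08, 7.72 and 7.46 in Th1 cells, 4.09-fold lower (difference -2.03, SE 0.23, adjusted p = 3.0e-06). Ptgir, the prostacyclin receptor, had 8.79, 8.74 and 8.85 in Th17 cells, against 9.54, 9.62 and 9.58 in Th1 cells (difference -0.78, SE 0.14, adjusted p = 8.0e-04). Both were lower on every Th17 array than on any Th1 array. Ptger4, a receptor for prostaglandin E2, differed by -0.46 (adjusted p = 0.0352), a call lost without Th17 replicate 1, Th1 replicate 2 or Th1 replicate 3, whereas Ptger2, another receptor for it, differed by 0.42 and did not pass (adjusted p = 0.243). Gpr155, a cholesterol-sensing protein of lysosomes, was lower by -0.83 as a difference (SE 0.11, adjusted p = 1.7e-05). S1pr5, a sphingosine phosphate receptor that guides exit from tissues, differed by -1.37 (SE 0.35, adjusted p = 0.0241), a call lost without Th17 replicate 1 or 3 or Th1 replicate 2 or 3.

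**Figure D2:**
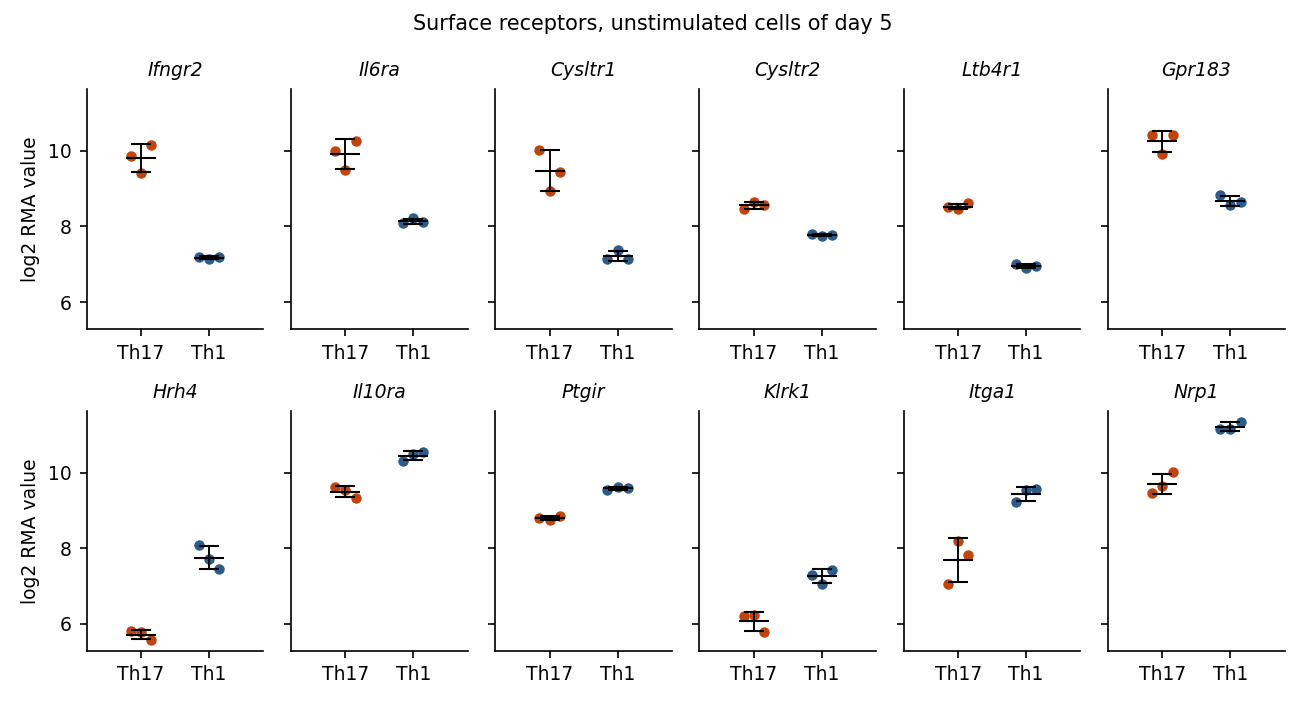
Log2 RMA values of 12 surface receptors on the 3 Th17 and 3 Th1 arrays of unstimulated cells of day 5. Points are arrays in replicate order from left to right, and bars are the mean and SD. Ltb4r1 and Cysltr2 are close to level across the Th17 replicates, Cysltr1 varies among them, and Hrh4, Il10ra, Ptgir, Klrk1, Itga1 and Nrp1 are lower in Th17 cells.

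Of 16 chemokine receptors 4 rose (Ccr6, Ccr7, Ccr4 and Ccr9) and 2 fell (Cx3cr1 and Ccr3), with a median difference of 0.03, and neither of the lower calls held without Th17 replicate 3 or Th1 replicate 3 (Cx3cr1 also not without Th17 replicate 1 or Th1 replicate 2, and Ccr3 also not without Th17 replicate 2). Among 19 lectin-like receptors 5 rose (3 without Th17 replicate 2, Th17 replicate 3 or Th1 replicate 2) and 3 fell, with a median difference of 0.18, and 2 were higher and 2 lower with the granulocyte covariate. Cd72, a receptor for CD100 known from B cells, had 8.60, 7.85 and 8.64 in Th17 cells, against 6.64, 6.36 and 6.34 in Th1 cells. It was higher by 1.91 (SE 0.22, adjusted p = 3.7e-06), while the B cell lectin Cd22 was lower by 1.19 on the log2 scale in Th17 cells (difference -1.19, SE 0.15, adjusted p = 1.7e-05). Cd22 had 6.42, 6.35 and 6.38 in Th17 cells, against 7.42, 7.70 and 7.60 in Th1 cells. The pair therefore moved in opposite directions, and the other 10 B cell markers were not called. Klrk1, the activating receptor NKG2D, had 6.20, 6.22 and 5.78 in Th17 cells, against 7.30, 7.06 and 7.44 in Th1 cells (difference -1.20, SE 0.15, adjusted p = 9.2e-06). Klrc2, the gene of NKG2C, went the other way, with 6.60, 6.98 and 6.66 in Th17 cells, against 5.83, 5.90 and 6.17 in Th1 cells (difference 0.78, SE 0.16, adjusted p = 0.0041). Klrk1 and Klrc2 thus went opposite ways, with groups that did not overlap in either. Neither was the largest change of the list of lectin-like receptors, where the lowest difference was -3.21.

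Integrins split by chain. Of 30 integrins and adhesion genes 6 rose and 3 fell, with a median difference of 0.08, and 3 were higher and 1 lower with the granulocyte covariate. Itga1, the collagen-binding α1 chain, had 7.05, 8.20 and 7.81 in Th17 cells, against 9.21, 9.54 and 9.56 in Th1 cells (difference -1.75, SE 0.23, adjusted p = 2.6e-05). Its partner Itgb1 had 11.73, 11.91 and 11.89 in Th17 cells, against 12.70, 12.70 and 12.76 in Th1 cells (difference -0.87, SE 0.10, adjusted p = 2.4e-06). Itga3 and Itga5, α chains that pair with the same β chain and bind laminin and fibronectin, were higher in Th17 cells, by 1.13 (SE 0.18, adjusted p = 2.1e-04) and 1.04 (SE 0.13, adjusted p = 1.2e-05). The level of the shared β chain and that of these α chains hence differed in opposite directions. Nrp1, a co-receptor for semaphorins and VEGF, had 9.46, 9.63 and 10.00 in Th17 cells, against 11.15, 11.15 and 11.35 in Th1 cells, 2.86-fold lower (difference -1.51, SE 0.17, adjusted p = 2.0e-06). Emb, the gene of embigin, which escorts monocarboxylate transporters to the membrane, had 11.79, 11.65 and 11.68 in Th17 cells, against 9.81, 9.64 and 9.88 in Th1 cells. It was 3.81-fold higher (difference 1.93, SE 0.15, adjusted p = 5.7e-09), and its values were level within each group. Of 30 TNF receptors and ligands 3 rose and 3 fell (median difference 0.12). The rises of Ltb, the gene of lymphotoxin β (difference 0.80, adjusted p = 1.2e-04), and of Tnfrsf25, the receptor for TL1A (difference 0.59, adjusted p = 1.1e-04), held with every single array left out, and none of the 3 lower calls did. Of 28 immunoglobulin-type and SLAM receptors 2 rose and 2 fell (median difference 0.08). The higher count was 1 without Th17 replicate 3 or Th1 replicate 1 or 3, the lower count was 0 without Th17 replicate 1 and 1 without Th17 replicate 3 or any single Th1 array, and 0 were called with the granulocyte covariate.

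Enzymes that break down nucleotides at the cell surface changed in opposite directions. Nt5e, the gene of CD73, which makes adenosine from AMP, had 10.24, 9.74 and 10.32 in Th17 cells, against 7.89, 8.27 and 7.77 in Th1 cells. Entpd1, the gene of CD39, which makes AMP from ATP and ADP, had 10.08, 9.94 and 9.88 in Th17 cells, against 11.16, 11.11 and 11.19 in Th1 cells. The second enzyme of the chain was therefore 4.37-fold higher in Th17 cells (difference 2.13, SE 0.21, adjusted p = 3.7e-07) and the first 2.27-fold lower (difference -1.18, SE 0.12, adjusted p = 7.5e-07). Upp1, a uridine phosphorylase that frees ribose from uridine, had 8.39, 7.98 and 7.94 in Th17 cells, against 6.56, 6.48 and 6.68 in Th1 cells (difference 1.53, SE 0.18, adjusted p = 3.7e-06). Dpp4, the gene of the peptidase CD26, was higher by 0.99 (SE 0.16, adjusted p = 4.0e-04). Ada and Pnp, which act on adenosine and on purine nucleosides inside the cell, did not pass, with differences of -0.35 and -0.02. In this list 4 of 17 genes rose and 1 fell, and the median difference was -0.06.

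Calls in core carbon metabolism are given beside those over all genes, of which 3.63% were called and 12.9% had an unadjusted p under 0.05 in limma. In lists of this size, 0 calls lie near that share, and the 10% called in glycolysis are 2 of 20 genes, too few to set apart from it. With the granulocyte covariate 0 genes of glycolysis were called. Among 22 genes of the TCA cycle and fatty acid oxidation limma called 0 (median difference -0.08), and 5 had an unadjusted p under 0.05. Among 29 of amino acid supply it called 0 (median difference -0.09), and 2 had an unadjusted p under 0.05. Among 20 of glycolysis 2 were called, both higher, with a median difference of -0.08 (1 higher without Th17 replicate 1, 2 or 3 or Th1 replicate 2 or 3). Of these, Pdk1, a kinase that holds back pyruvate dehydrogenase, was higher by 0.79 (SE 0.13, adjusted p = 5.5e-04). Ldha, lactate dehydrogenase, had 13.16, 13.15 and 13.27 in Th17 cells and 13.29, 13.23 and 13.25 in Th1 cells, which overlap. Hk2, a hexokinase, had 7.67, 7.77 and 8.10 in Th17 cells and 8.52, 8.52 and 8.41 in Th1 cells and missed the threshold (difference -0.64, adjusted p = 0.0583). Of 26 genes of cholesterol and fatty acid synthesis 3 fell and 1 rose (median difference -0.16). Scd2, a fatty acid desaturase, had 10.63, 10.81 and 10.97 in Th17 cells, against 11.38, 11.72 and 11.69 in Th1 cells (difference -0.79, SE 0.13, adjusted p = 4.3e-04), and Elovl6, an elongase, was higher by 0.78 (SE 0.15, adjusted p = 0.00205). Acsbg1, an acyl-CoA synthetase known mainly from brain, had 10.47, 10.15 and 10.24 in Th17 cells, against 9.43, 9.32 and 9.49 in Th1 cells (difference 0.87, SE 0.09, adjusted p = 7.5e-07). The called genes among these were apart on every array. Of 27 genes of lipid mediators and lipid handling 3 rose and 3 fell (median difference 0.01). The higher count was 1 without Th1 replicate 3 and 5 without Th17 replicate 2, and the lower count was 1 without Th17 replicate 1. Of 30 redox genes 2 rose and 1 fell (median difference -0.01), and limma called 0 without Th17 replicate 1 or Th1 replicate 1.

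Akr1c18, a reductase that inactivates progesterone, was among the genes with the largest lower differences, though not the lowest. It had 4.98, 4.86 and 4.33 in Th17 cells, against 7.86, 7.74 and 7.80 in Th1 cells, 8.44-fold lower (difference -3.08, SE 0.20, adjusted p = 3.7e-10). Of 8 measured members of its family, which lie on chromosome 13 within chr13:4048991-4586543 (GRCm38), 3 were lower and 0 higher, Akr1c13 by -1.25 and Akr1c12 by -1.23 as differences. A second cluster of related neighbours behaved alike: of 10 measured kallikrein genes of the Klk1b group, within chr7:43945012-44220703, 6 were lower and 0 higher. The lowest difference among these 10 was -4.03, beyond that of Akr1c18. Klk1b8 had 5.02, 4.99 and 4.76 in Th17 cells, against 6.34, 6.91 and 7.08 in Th1 cells (difference -1.86, SE 0.17, adjusted p = 9.5e-08). Klk1b9 had 6.44, 6.21 and 6.50 in Th17 cells, against 7.77, 8.31 and 7.78 in Th1 cells (difference -1.57, SE 0.16, adjusted p = 7.4e-07). Members of each family are closely alike in sequence, and probes of one may detect RNA of another, so that the number of genes involved is uncertain.

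Glycosyltransferases, which build the sugar chains of surface proteins, were often called: 7 of 22 rose and 2 fell, with a median difference of 0.06. The higher count was 4 without Th17 replicate 1, Th1 replicate 1 or Th1 replicate 3, and 1 with the granulocyte covariate. Gcnt1, which opens core branches on O-glycans and serves selectin ligands, had 6.90, 7.08 and 7.63 in Th17 cells, against 6.14, 5.79 and 5.95 in Th1 cells (difference 1.24, SE 0.19, adjusted p = 1.6e-04). St6gal1, which adds α2,6-linked sialic acid, had 9.19, 8.45 and 9.03 in Th17 cells, against 7.62, 7.48 and 7.60 in Th1 cells (difference 1.32, SE 0.21, adjusted p = 3.1e-04). Its difference with the granulocyte covariate was 0.77 (adjusted p = 0.257). St3gal6, an α2,3-sialyltransferase, had 8.76, 7.92 and 7.92 in Th17 cells, against 9.59, 9.97 and 9.83 in Th1 cells. It was lower (difference -1.59, SE 0.22, adjusted p = 3.7e-05) although its granulocyte slope was positive, and its difference with the covariate was -2.38.

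**Figure D3:**
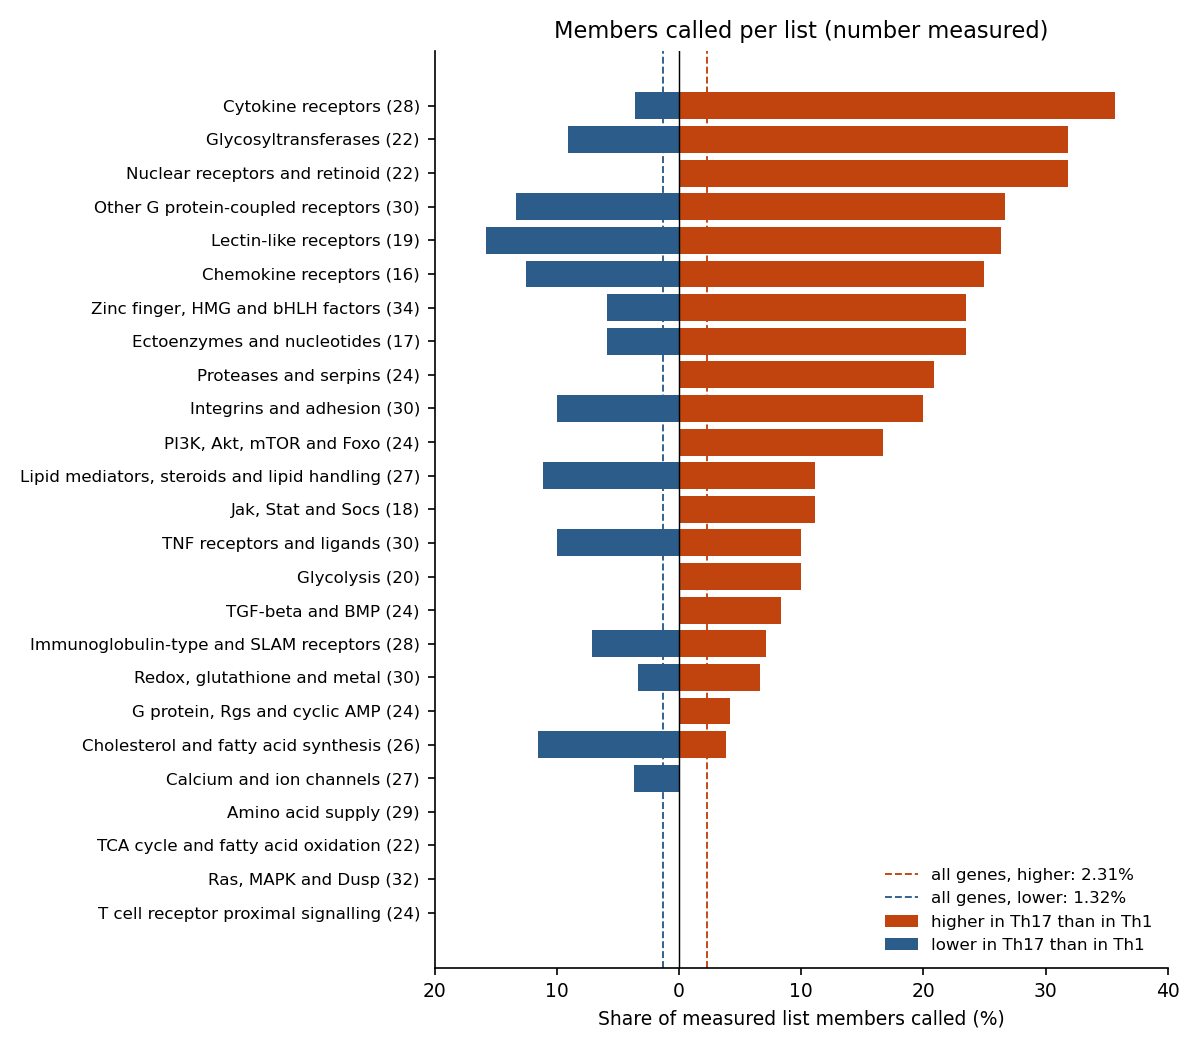
Share of the measured members of 25 lists, in percent, called higher (right) or lower (left) in Th17 than in Th1 cells. The number measured stands beside each list name, and dashed lines give the shares of all genes, 2.31% and 1.32%. The lists drawn were chosen with earlier results of these data known, so their place relative to the lines is a description. Lists of markers, of the helper programs, of the clock and of the insulin family are not drawn. Glycosyltransferases and cytokine receptors lie above both lines, and 4 lists at the bottom have 0 calls.

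Signalling genes inside the cell gave from 0 to 4 calls per list. In the lists of proximal T cell receptor signalling (24 genes) and of Ras, MAPK and Dusp genes (32), limma called 0. An unadjusted p under 0.05 was reached by 4 and 6 of these genes, and the median differences were 0.05 and 0.01. Zap70, the kinase next to the receptor, had 11.45, 11.60 and 11.62 in Th17 cells and 11.46, 11.55 and 11.56 in Th1 cells. Ppp3ca, a catalytic subunit of calcineurin, was the 1 of 27 calcium and ion channel genes called, with a difference of -0.49 (SE 0.10, adjusted p = 0.00405). Adcy6, an adenylyl cyclase, was the 1 of 24 genes of G proteins and cyclic AMP, with 7.66, 7.80 and 8.05 in Th17 cells, against 6.96, 7.09 and 6.92 in Th1 cells (difference 0.85, SE 0.12, adjusted p = 6.5e-05). Of 24 genes of PI3K, Akt and mTOR 4 rose, of which Pik3ip1, an inhibitor of PI3K that sits in the membrane, differed most (1.24, SE 0.19, adjusted p = 2.0e-04). The median difference of this list was 0.08, and the 4 were 0 with the granulocyte covariate, 1 without Th17 replicate 1 and 2 without Th17 replicate 3, Th1 replicate 1 or Th1 replicate 2. Of 24 TGF-β and BMP genes 2 rose (median difference 0.14), and of 18 Jak, Stat and Socs genes 2 rose (median difference 0.04), and 1 was called without Th17 replicate 1 or 3 or Th1 replicate 1 or 3. Tgfbr3, the co-receptor betaglycan, which presents TGF-β2, had 8.90, 8.87 and 9.30 in Th17 cells, against 7.98, 7.86 and 7.70 in Th1 cells (difference 1.18, SE 0.17, adjusted p = 5.1e-05). Acvr1b, a receptor kinase for activin, had 7.84, 7.42 and 7.71 in Th17 cells, against 6.82, 6.84 and 6.85 in Th1 cells (difference 0.82, SE 0.10, adjusted p = 1.1e-05).

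Receptors of the insulin family were higher in Th17 cells. In a list of 6 genes put together after their values were seen, 4 were called, all higher. Igf1r, the IGF-1 receptor, had 8.16, 8.14 and 8.69 in Th17 cells, against 6.69, 6.77 and 6.61 in Th1 cells, 3.12-fold higher (difference 1.64, SE 0.18, adjusted p = 2.0e-06). Insr, the insulin receptor, had 8.04, 7.88 and 8.27 in Th17 cells, against 7.44, 7.53 and 7.42 in Th1 cells (difference 0.60, SE 0.12, adjusted p = 0.00255). The arrays of the groups did not overlap for either receptor. Igfbp4, a secreted protein that binds IGF and limits its action, had 9.82, 9.56 and 10.51 in Th17 cells, against 7.25, 7.50 and 7.16 in Th1 cells, 6.30-fold higher (difference 2.66, SE 0.27, adjusted p = 6.6e-07). Irs2, the docking protein below both receptors, differed by 0.90 (adjusted p = 0.028), a call lost without Th17 replicate 2 or 3 or Th1 replicate 1 or 2, and Igf2r and Irs1 did not pass (differences -0.05 and -0.08). In the other direction and outside this list, Igf2bp3, which binds the RNA of Igf2 and other genes, had 7.41, 7.49 and 7.18 in Th17 cells, against 8.95, 8.79 and 8.88 in Th1 cells, 2.86-fold lower (difference -1.51, SE 0.10, adjusted p = 7.5e-10).

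Several nuclear receptor and clock genes were higher in Th17 cells, while most members of either list were not called. Of 22 nuclear receptor and retinoid genes 7 rose and 0 fell (median difference 0.10). With the granulocyte covariate 3 were higher (Rora, Nr1d1 and Nr1d2) and 2 lower (Rxra and Pparg, receptors for retinoids and fatty acids). Of 17 clock genes, a list put together after values were seen, 6 rose and 2 fell (median difference 0.35), and 5 were higher and 0 lower with the covariate. The clock runs on a loop in which ARNTL and CLOCK bind E-boxes and switch on Per and Cry genes, whose proteins shut them off, while ROR proteins activate and REV-ERB proteins (Nr1d1 and Nr1d2) repress Arntl. Arntl had 9.30, 9.51 and 9.34 in Th17 cells, against 7.41, 7.58 and 7.63 in Th1 cells, 3.59-fold higher (difference 1.84, SE 0.11, adjusted p = 1.0e-10). Its activator Rora, also a regulator of the Th17 program, had 10.75, 11.04 and 10.97 in Th17 cells, against 9.34, 9.16 and 9.41 in Th1 cells (difference 1.61, SE 0.11, adjusted p = 2.9e-10). Cry1, a repressor of the loop, had 9.14, 9.19 and 9.11 in Th17 cells, against 7.62, 7.49 and 7.74 in Th1 cells (difference 1.53, SE 0.08, adjusted p = 8.7e-12). These genes varied little within a group and had no called granulocyte slope. Nr1d1 had 8.42, 8.31 and 8.97 in Th17 cells, against 7.37, 7.30 and 7.40 in Th1 cells (difference 1.21, SE 0.17, adjusted p = 6.2e-05). Nr1d2 had 8.16, 8.02 and 8.43 in Th17 cells, against 7.08, 7.16 and 6.88 in Th1 cells (difference 1.16, SE 0.14, adjusted p = 6.8e-06). Activator and repressors of Arntl were thus higher together.

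The Per genes did not follow. Per1, Per2 and Per3 differed by 0.35, -0.38 and 0.03, with adjusted p of 0.388, 0.0729 and 0.967, and Per2 had 6.41, 6.63 and 6.78 in Th17 cells and 7.03, 7.01 and 6.92 in Th1 cells. Dbp, an output gene of the loop that swings widely over the day, differed by 0.37 and did not pass (adjusted p = 0.148). Cry2 and Tef were lower by -0.35 and -0.37 as differences (adjusted p = 0.0324 and 0.0429). The first call was lost with any single array of the 6 left out, the second with any but Th17 replicate 2. The hour of collection is not given in the sources used here, so whether it differed between the groups was not tested.

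**Figure D4:**
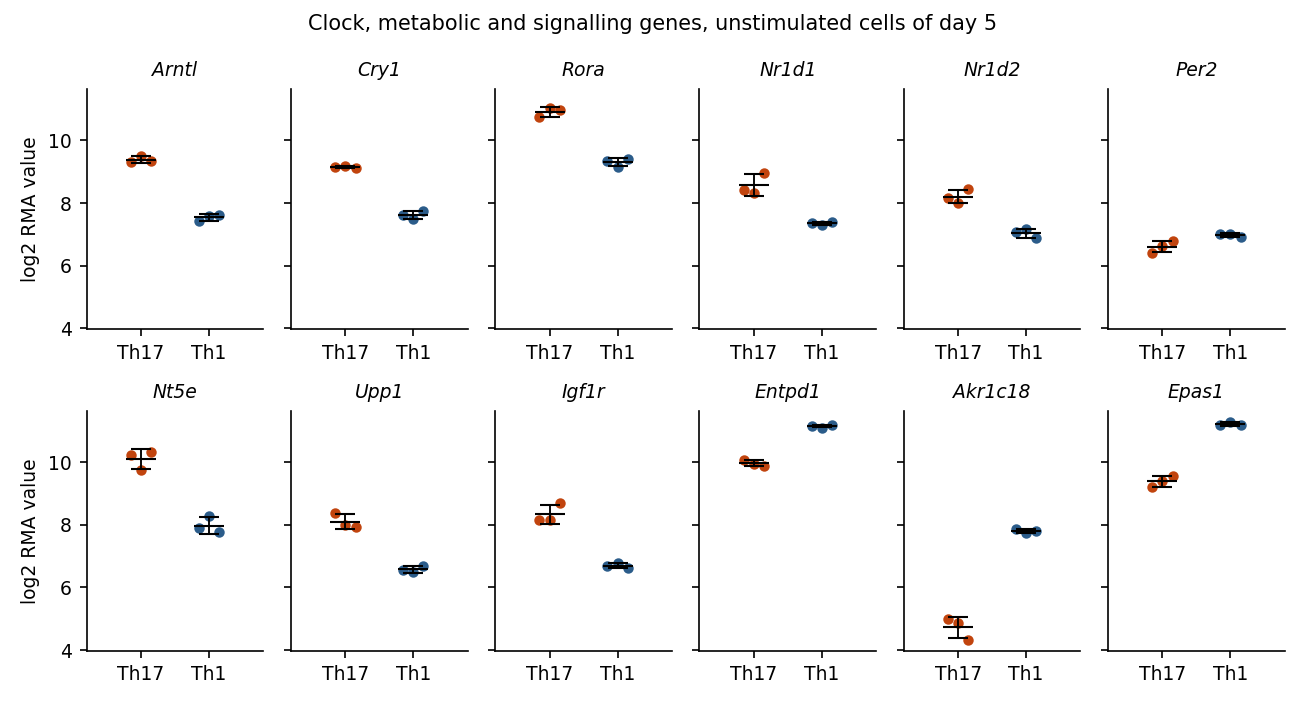
Log2 RMA values of clock genes (upper row) and of metabolic and signalling genes (lower row) on the 3 Th17 and 3 Th1 arrays of unstimulated cells of day 5. Points are arrays in replicate order from left to right, and bars are the mean and SD. Arntl, Cry1, Rora, Nr1d1 and Nr1d2 are higher on every Th17 array, whereas Per2 is not called, and Entpd1, Akr1c18 and Epas1 are lower.

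Promoter sequence is shown for 4 of the higher genes, picked because their window holds a match: ROR and REV-ERB proteins bind the letters AGGTCA after an A- and T-rich stretch and ARNTL with CLOCK binds CACGTG. Sequences are from RefSeq (GRCm38.p6), each on its gene's strand and 5′ to 3′, with the matched letters in capitals. The stretch of Il23r is chr6:67491856-67492005 (minus strand), that of Ccr6 chr17:8235893-8236042 (plus), that of Arntl chr7:113207530-113207559 (plus) and that of Cry1 chr10:85185055-85185204 (minus). The match begins 67 bases before the start site in Il23r, 44 before it in Ccr6 (where it is read on the opposite strand), 30 after it in Arntl and 60 before it in Cry1.
Il23r: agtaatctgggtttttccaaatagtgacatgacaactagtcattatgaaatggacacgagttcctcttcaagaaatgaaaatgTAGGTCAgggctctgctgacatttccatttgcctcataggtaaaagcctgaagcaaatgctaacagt
Ccr6: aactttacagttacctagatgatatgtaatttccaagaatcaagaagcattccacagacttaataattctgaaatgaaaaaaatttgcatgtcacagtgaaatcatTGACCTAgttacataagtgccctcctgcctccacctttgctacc
Arntl: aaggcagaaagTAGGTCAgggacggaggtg
Cry1: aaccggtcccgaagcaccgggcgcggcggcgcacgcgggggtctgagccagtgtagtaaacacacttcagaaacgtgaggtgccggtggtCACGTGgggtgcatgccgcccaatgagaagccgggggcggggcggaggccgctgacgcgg
On either strand, TAGGTCA occurred in 2.13% of the 517 windows of 300 bases at called higher genes, 3.96% of 278 at called lower genes and 2.25% of 19177 at all genes tested. The E-box CACGTG occurred in 9.67%, 7.19% and 8.24% of these windows. The windows of Rora, Nr1d1, Nr1d2, Nt5e, Igfbp4, Pcsk1 and Ifngr2, which were also higher, held 0 matches of either motif. A match is a description of the letters, and the shares of the higher genes lay near those of all genes.

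Among other regulators, Epas1, the gene of the oxygen-sensitive factor HIF-2α, had 9.22, 9.39 and 9.55 in Th17 cells, against 11.20, 11.30 and 11.18 in Th1 cells, 3.58-fold lower (difference -1.84, SE 0.18, adjusted p = 3.2e-07). Zeb2, a repressor linked to terminal effector T cells, had 6.62, 7.84 and 7.34 in Th17 cells, against 8.84, 8.96 and 9.10 in Th1 cells (difference -1.70, SE 0.22, adjusted p = 1.6e-05). Both were lower on every Th17 array. Of 34 zinc finger, HMG and bHLH factors 8 rose and 2 fell (median difference 0.06), and 2 were higher and 2 lower with the granulocyte covariate. Satb1, a chromatin organiser of T cells, had 11.71, 11.95 and 12.13 in Th17 cells, against 11.16, 11.29 and 11.22 in Th1 cells (difference 0.71, SE 0.12, adjusted p = 6.1e-04). Bach2, which restrains effector genes, was higher by 1.09 (SE 0.22, adjusted p = 0.00358).

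In a list of 24 proteases and serpins 5 rose and 0 fell, with a highest difference of 3.46, and 2 were higher with the granulocyte covariate. The further genes named here also differed widely, and they had no called granulocyte slope. Tmem176b and Tmem176a, neighbouring genes for membrane channels, had 11.13, 10.55 and 11.22 and 9.92, 9.25 and 10.01 in Th17 cells, against 8.41, 8.45 and 8.29 and 7.34, 7.47 and 7.46 in Th1 cells. Their differences were 2.59 (SE 0.16, adjusted p = 1.5e-10) and 2.31 (SE 0.18, adjusted p = 6.6e-09). Ermn, an actin-binding protein of oligodendrocytes, had 9.85, 10.25 and 10.49 in Th17 cells, against 8.22, 7.84 and 8.18 in Th1 cells (difference 2.12, SE 0.23, adjusted p = 2.0e-06). Dpy19l3, a C-mannosyltransferase, had 9.91, 9.55 and 9.75 in Th17 cells, against 7.33, 7.47 and 7.35 in Th1 cells (difference 2.35, SE 0.12, adjusted p = 8.7e-12). Each of these genes was higher on every Th17 array. Among the lower genes, Prxl2a, a redox protein, had 9.32, 8.30 and 9.22 in Th17 cells, against 11.37, 11.19 and 11.20 in Th1 cells (difference -2.30, SE 0.23, adjusted p = 3.4e-07). Dnase1l3, a secreted DNase, had 7.21, 6.15 and 6.95 in Th17 cells, against 8.81, 9.20 and 9.24 in Th1 cells (difference -2.32, SE 0.30, adjusted p = 1.9e-05). Anxa1, a calcium-dependent phospholipid-binding protein with anti-inflammatory activity, had 8.59, 8.77 and 9.03 in Th17 cells, against 10.32, 10.43 and 10.55 in Th1 cells (difference -1.64, SE 0.22, adjusted p = 3.4e-05).

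Most of these differences had the same sign after restimulation. Of the 414 genes that were higher without a granulocyte slope, 412 had the same sign in the restimulated parts and 301 were called there, and of the 264 lower genes 261 had the same sign and 119 were called, where 3.98% of all genes were called. The parts come from divided samples, so these are not independent samples. A difference between the unstimulated and the restimulated difference was called for 4 genes (0.0201%), Ccl20, Dab2, Il17a and Il17f, none of which was called in unstimulated cells. Dab2, an endocytic adaptor, had 5.97, 6.09 and 6.12 in Th17 cells and 5.55, 5.76 and 5.56 in Th1 cells (difference 0.44), and its restimulated difference was 1.70. For Igf1r the restimulated difference was 2.26, for Nt5e 2.34 and for Upp1 2.21, and the change of difference was not called for any of these.

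At day 15, 4.15% of all genes were called. The day 5 difference was above the day 15 one for 112 genes and below it for 115, together 227 genes (1.14%), of which 100 were called at day 5. Clock genes were among them: the Arntl difference was 0.80 at day 15, that of Cry1 0.83, that of Rora 0.44 and that of Nr1d2 0.07, and the change was called for each. The Nr1d1 difference was 1.60 at day 15, and its change was not called (adjusted p = 0.565). Akr1c18 differed by -1.03 at day 15, and Klk1b8 and Klk1b9 by -0.25 and -0.17, and these changes were called. Akr1c12 differed by -0.89 at day 15, and its change was not called (adjusted p = 0.649). The Cysltr2 difference was -0.44 at day 15 and that of Gcnt1 was -0.31. Il10ra and Klrk1 differed more at day 15, by -1.64 and -2.19. The change was called for both (adjusted p = 0.0323 and 0.021), and was lost for both without Th17 replicate 2, Th1 replicate 1 or Th1 replicate 2, and for Il10ra also without Th17 replicate 1. Neither change was called in the fit that included the mean of the erythroid markers (adjusted p = 0.103 and 0.0731). Ifngr2, Il6ra, Epas1 and Hrh4 had day 15 differences of 2.29, 1.79, -1.55 and -2.35, and no change was called. Erythroid markers averaged 9.11 to 9.98 in Th17 and 9.78 to 10.1 in Th1 arrays of day 15, against 6.62 to 6.87 in Th17 and 6.48 to 6.61 in Th1 arrays of day 5, and their part in the changes between days was not tested beyond the covariate given under the alternatives.

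**Figure D5:**
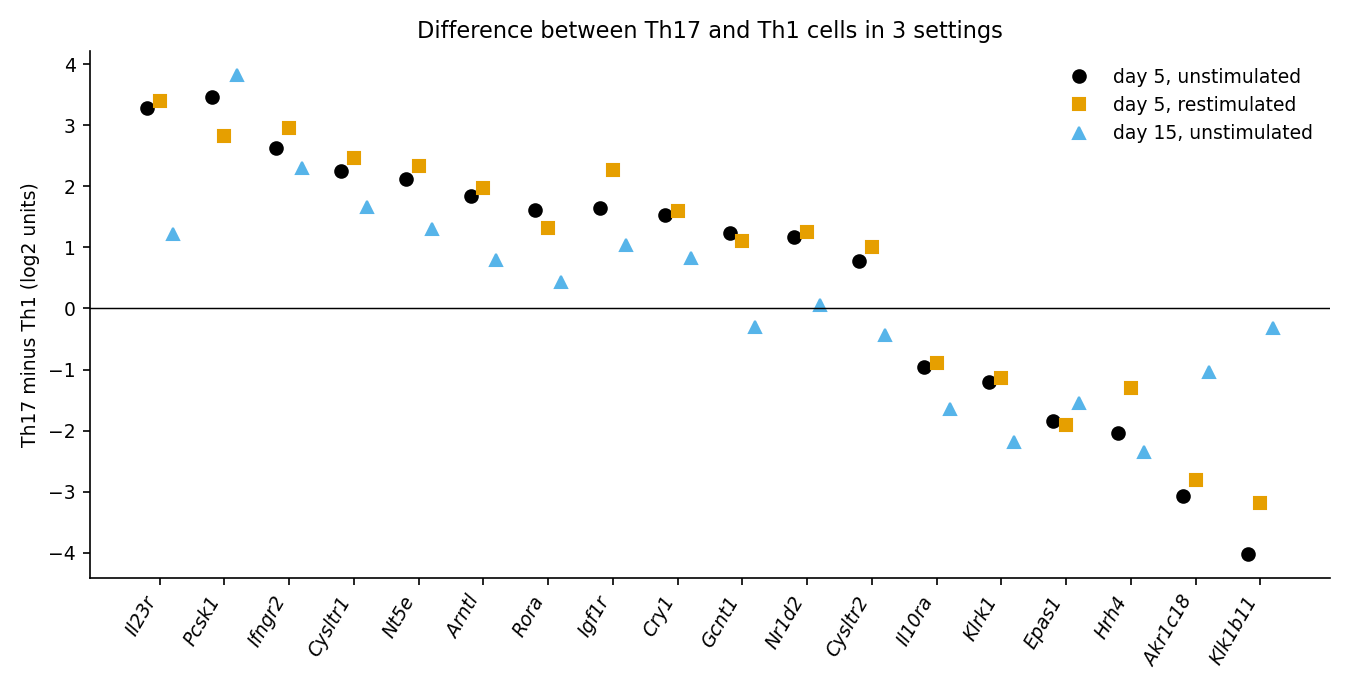
Th17 minus Th1 in log2 units for 18 genes in unstimulated cells of day 5 (circles), restimulated cells of day 5 (squares) and unstimulated cells of day 15 (triangles). Circles and squares lie close together for most genes, whereas the triangles of Il23r, Arntl, Rora, Gcnt1, Nr1d2, Cysltr2, Akr1c18 and Klk1b11 lie nearer to zero or across it.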

How the data were processed

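The deposited values are log2 RMA values that the authors made in Affymetrix Expression Console, per the submitters' processing notes. The sources used here give neither versions nor which arrays were normalised together. RMA is meant to equalise the distributions of the arrays, so that a shift of all genes would be largely removed. The array medians still ran from 6.77 to 7.09 over the 28 arrays. Of 35556 probe sets, 21789 had 1 symbol, 1621 several and 12146 none. The gene table held the identifier of 21698, 0 symbols changed, and the highest-mean probe set per gene left 19938 genes.

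A linear model with 1 term for each of the 8 groups described the 24 arrays of day 5 and day 15 in limma 3.58.1 (lmFit, eBayes) in R 4.3.3, and Benjamini-Hochberg adjustment ran over all genes. The 4 day 0 arrays, 1 per group, stayed out. The number of arrays limits the precision. On simulated data with 200 of 19938 genes changed, 100% were recovered in the day 5 comparison at log2 sizes of 1 and of 2, and 5 unchanged genes were called. The simulated noise was independent for each gene and array, with no factor shared within a sample such as the granulocyte markers show. Smaller sizes were not simulated, and only 165 of the 724 calls were at least 2-fold. The recovery therefore does not give the power for the real genes. Same-numbered Th17 and Th1 arrays did not deviate together (correlations 0.03, 0.07 and -0.13 over 9969 genes).

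Members and gene lists were chosen with earlier results of these data known, and the clock and insulin lists after their values were seen. Of 857 list entries 788 were measured, and 1 list is not reported here. Named genes are up to 25 each way with the largest differences among called genes that do not overlap, up to 5 called members of each list each way, up to 3 uncalled members with the highest level, a panel of defining genes, and up to 10 with the largest slopes or interactions; others were named after their values were seen.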

Additional observations from a re-analysis of the deposited data

Results flagged for a closer look

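For 23 genes described above the difference between Th17 and Th1 cells itself differed between day 5 and day 15 in unstimulated cells, by an interaction test in limma. Each value here is the day 5 difference minus the day 15 difference on the log2 scale. Among regulators it was 1.04 for Arntl, 0.70 for Cry1, 1.18 for Rora and 1.10 for Nr1d2. Among receptors it was 2.06 for Il23r, 1.22 for Cysltr2, 0.84 for Gpr183, 0.69 for Il10ra, 0.70 for Il18r1, 1.21 for Ccr3 and 0.85 for Itga5. The NK receptor genes gave 1.98 for Klrb1c, 1.48 for Klrc2 and 0.99 for Klrk1. Klrb1c and Klrc2 changed sign, with differences of 1.02 and 0.78 at day 5 and of -0.96 and -0.70 at day 15. Enzymes gave 1.55 for Gcnt1, 1.30 for Dpy19l3, 0.62 for Acsbg1, -2.04 for Akr1c18 and -0.92 for Akr1c13. The kallikrein genes gave -3.70 for Klk1b11, -1.61 for Klk1b8 and -1.40 for Klk1b9. Elane, a granule gene that was not called at day 5, gave -1.23, with a day 15 difference of 1.43. Of the 23 calls, 17 held with each of the 6 unstimulated day 5 arrays left out in turn. The day 15 arrays were not left out, so this covers 1 side of the contrast only. When the mean of erythroid markers was added as a covariate, 19 held, those of Il10ra, Il18r1, Itga5 and Klrk1 excepted.

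For 4 genes the unstimulated difference differed from the restimulated one at day 5. The unstimulated difference minus the restimulated difference was -1.40 for Ccl20, -1.27 for Dab2, -3.29 for Il17a and -2.91 for Il17f. The calls of Il17a and Il17f held with each of the 6 unstimulated day 5 arrays left out in turn, while the restimulated arrays were not left out. That of Ccl20 was lost without Th17 replicate 1, Th1 replicate 1 or Th1 replicate 3, and that of Dab2 with any of the 6 arrays left out. Neither of these held with the erythroid covariate.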

How the results depend on the processing

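The 724 calls of the day 5 comparison became 2159 with array weights and 240 with the granulocyte marker mean as a covariate (137 higher, 103 lower), and ran from 444 to 703 with single arrays left out. With the replicate number as a block, which the arrays do not bear out, 852 were called (514 higher, 338 lower). The 227 changes between days became 374 in a model of only the compared groups, 341 among genes above the median level, 426 after cyclic loess, 349 after centring (74 higher, 275 lower, against 112 and 115), 1319 with array weights and 527 with the erythroid covariate, and ran from 99 to 232 with single arrays left out (255 without both day 5 parts of Th17 replicate 1). The 4 changes with restimulation became 1 among genes above the median, 12 with array weights, 2 with the erythroid covariate and 2 without both day 5 parts of Th17 replicate 1, and ran from 2 to 4 with single arrays left out. The 185 called granulocyte slopes became 8 without those parts and 399 on the 12 day 5 arrays only. The 133 called list members became 60 with the granulocyte covariate. The cause of these shifts was not tested. Of the 105 called genes named, 65 kept their call in every alternative run for them and 18 more lost it only with the granulocyte covariate. That covariate turned the difference to -0.14 for Alox5ap, -0.033 for Cd33, -0.20 for Chil1, -0.022 for Dhrs3, -0.053 for Mgst2, -0.018 for Ngp, -0.59 for S100a9, -0.24 for Spi1 and -1.32 for Ly6g, which was not called without it. Levels near the dim end have no detection call here, so low values have no firm order.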

Other observations

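In the cultures of day 0, before transfer, 25 of the 28 granulocyte markers were higher in the 1 Th17 array than in the 1 Th1 array, and their mean was 8.30 in the Th17 culture and 6.86 in the Th1 culture. There are no replicates at day 0 and no test. The higher markers of this culture included Elane, at 10.1 in the Th17 culture and 6.68 in the Th1 culture, and Ngp, at 11.4 in the Th17 culture and 6.27 in the Th1 culture. Day 5 Th17 arrays had Ngp at 11.06, 9.05 and 8.73 and Elane at 6.89, 6.97 and 6.50. Ly6g went the other way, with 8.08 in the Th17 culture and 9.85 in the Th1 culture.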
